A study of Mus musculus with 3 samples.

Results

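The contractile apparatus of smooth muscle was followed through the cells of the mouse lacrimal gland (LG), the gland that secretes the aqueous part of tears. It was represented by 10 genes, *Acta2*, *Myh11*, *Tagln*, *Cnn1*, *Mylk*, *Myl9*, *Tpm1*, *Tpm2*, *Cald1* and *Flna*, chosen by name from the 32285 genes in the count matrices. The question was how these genes divide between the cell types of the gland, and in particular between myoepithelial cells (MECs) and the mural cells of blood vessels. The data came from single-cell RNA sequencing of 3 libraries, 1 from female and 2 from male mice, called here female, male 1 and male 2. Each library pooled 6 glands of 3 C57BL/6J mice aged 2 months, with no treatment named in the labels, dissociated with collagenase and dispase. The female library was sequenced at another core facility and on another day than the male libraries, so these factors cannot be told apart here and no sex difference was tested. The mice of a pool cannot be separated, so replicate spread here is the spread between pools. The 3 libraries shared 8 to 13 barcodes among kept cells in each pair.

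Contraction of smooth muscle is switched on when calcium binds calmodulin and activates myosin light chain kinase, which phosphorylates the regulatory light chain so that myosin can pull on actin filaments. Tropomyosins, caldesmon and calponin lie along the actin filament and modulate that interaction, and the program as a whole is driven by serum response factor (SRF) with its coactivators, which binds the CArG box. Mural cells, namely vascular smooth muscle cells and pericytes, use this machinery to set vessel calibre. MECs are basal epithelial cells that wrap secretory acini, carry keratins, and use the same proteins to squeeze out secretion.

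Of the filament proteins, *Acta2* encodes smooth muscle alpha-actin (chr19:34241090-34255590, GRCm38, minus strand) and *Myh11* the smooth muscle myosin heavy chain (chr16:14194535-14291372, minus). *Myl9* encodes the regulatory myosin light chain (chr2:156775420-156781658, plus) and *Mylk* the kinase that phosphorylates it (chr16:34745210-35002420, plus). Along the thin filament, *Tpm1* (chr9:67022590-67049406, minus) and *Tpm2* (chr4:43514711-43523765, minus) encode tropomyosins and *Cald1* encodes caldesmon (chr6:34598500-34775473, plus). Calponin 1 is encoded by *Cnn1* (chr9:22099216-22109630, plus) and transgelin, or SM22, by *Tagln* (chr9:45929619-45936058, minus). *Flna* encodes filamin A, an actin crosslinker that many non-muscle cells use (chrX:74223461-74249820, minus). UMIs (unique molecular identifiers, 1 for each captured transcript) were read at the 3′ end of transcripts, so smooth muscle and non-muscle isoforms of *Tpm1*, *Tpm2*, *Cald1*, *Mylk* and *Flna* were not told apart, and levels are compared between cells rather than between genes.

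Since the 10 genes were high together in both contractile cell types, the letters in front of their start sites are shown for 4 of them, the 3 with the most matches to a CArG box and *Cnn1*, the member that separated MECs from mural cells. Each line holds the 250 bases before the RefSeq start (GRCm38.p6), read 5′ to 3′ on the gene's strand, with matches to the CArG box that had at most 1 base off in capitals.
Acta2 (chr19:34255374-34255623, minus strand): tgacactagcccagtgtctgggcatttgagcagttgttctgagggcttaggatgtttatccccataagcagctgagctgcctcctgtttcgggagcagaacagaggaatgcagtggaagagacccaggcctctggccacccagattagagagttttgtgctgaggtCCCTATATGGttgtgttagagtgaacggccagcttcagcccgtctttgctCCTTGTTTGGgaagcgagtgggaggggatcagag
Myl9 (chr2:156775214-156775463, plus strand): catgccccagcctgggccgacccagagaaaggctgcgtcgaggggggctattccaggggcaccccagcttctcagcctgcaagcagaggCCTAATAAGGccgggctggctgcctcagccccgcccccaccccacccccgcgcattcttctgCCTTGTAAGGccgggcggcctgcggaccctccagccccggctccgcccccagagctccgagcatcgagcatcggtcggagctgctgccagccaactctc
Tpm1 (chr9:67049214-67049463, minus strand): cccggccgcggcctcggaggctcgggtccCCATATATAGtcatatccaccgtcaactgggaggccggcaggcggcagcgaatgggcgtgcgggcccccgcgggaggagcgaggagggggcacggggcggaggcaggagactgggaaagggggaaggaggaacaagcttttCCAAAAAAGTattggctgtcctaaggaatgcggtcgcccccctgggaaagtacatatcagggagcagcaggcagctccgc
Cnn1 (chr9:22099003-22099252, plus strand): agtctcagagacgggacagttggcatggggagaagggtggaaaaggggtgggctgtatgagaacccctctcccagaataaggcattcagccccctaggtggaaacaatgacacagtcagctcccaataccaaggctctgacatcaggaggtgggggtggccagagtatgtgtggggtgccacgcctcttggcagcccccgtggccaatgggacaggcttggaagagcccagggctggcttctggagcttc

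RefSeq promoters were matched for 8 of the 10 members, and *Myh11* and *Tagln* were not matched. On both strands of the window from 250 bases before to 50 bases after the start, an exact CArG box stood in front of 1 of the 8 members, *Myl9*, against 1.63% of 32851 promoters of the genome. With at most 1 base off, a match stood in front of 5 of the 8 (*Acta2*, *Myl9*, *Tpm1*, *Cald1* and *Flna*) against 21.1% of promoters. The 8 members had 9 promoters, *Cald1* having more than 1. Members were counted once each, and the genome by promoter. The *Flna* and *Mylk* windows lie at RefSeq starts inside the gene spans given above, not at their outer ends. The capitals in the *Acta2* sequence begin 84 and 34 bases before the start, and the exact box of *Myl9* begins 161 bases before it. The letters CATTCC, core of the site read by TEAD factors, were present on either strand for 5 of the 8, *Acta2*, *Cald1*, *Tpm1*, *Mylk* and *Flna*, against 14.7% of promoters. *Cnn1* and *Tpm2* held neither CATTCC nor a CArG match with at most 1 base off in this window, which says only that these letters were not there.

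The kept cells were 7652 (female), 5295 (male 1) and 5397 (male 2), holding 55390678, 37641576 and 41269825 UMIs, at medians of 3252, 1884 and 1788 UMIs per cell. Clusters were made and named without the 10 members. MEC-like cells, named from markers such as *Krt5*, *Krt14* and *Trp63*, numbered 340, 321 and 274, and mural-like cells, named from markers such as *Rgs5*, *Notch3* and *Pdgfrb*, numbered 50, 45 and 53. Mural-like cells with a UMI of 2 or more naming markers numbered 50, 41 and 36. With doublets removed at 2 times the expected rate, 25, 36 and 47 mural-like cells remained. In mural-like cells the MEC markers *Krt5*, *Krt14*, *Trp63*, *Sox10* and *Mia* had no UMI, and the summed MEC list reached 0 to 282 CPM (UMIs of the gene per 1000000 UMIs) there against 8619 to 12300.3 CPM in MEC-like cells. In MEC-like cells 6 of the 10 mural markers, *Pdgfrb* among them, had no UMI, and the summed list reached 43.8 to 101 CPM against 7203 to 12294 CPM in mural-like cells. The acinar list, which free RNA from secretory cells can carry, summed to 6199 to 17523 CPM in MEC-like and 8723 to 28336 CPM in mural-like cells, and its part in the differences between them was not tested. CPM here leave tear-product and mitochondrial transcripts out of the total. Tear products took 27.8%, 50.8% and 50.5% of MEC-like UMIs and 36.0%, 54.5% and 65.6% of mural-like UMIs. Values listed in this way follow the order female, male 1, male 2, and means are given ± SD over the 3 libraries.

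*Acta2* reached 7063, 9281 and 8478 CPM in MEC-like cells (mean 8274 ± 1123) and 10600.0, 9516 and 9955 CPM in mural-like cells (mean 10024 ± 545). Every mural-like value lay above every MEC-like value, although by little in male library 1. *Myh11* stood at 2507, 1828 and 1644 CPM in MEC-like and 5275, 3412 and 2684 CPM in mural-like cells. Each library was higher in its mural-like cells, and the groups did not overlap, with the female library highest in both classes. *Myl9* gave 2663, 2933 and 2746 CPM in MEC-like cells, a tight range, and 6086, 5134 and 3907 CPM in mural-like cells, all of them higher. *Mylk* gave 2189.7, 1799 and 2011 CPM in MEC-like and 2191, 1534 and 1597 CPM in mural-like cells, 2 ranges that overlapped.

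Among the thin-filament genes, the members went both ways. *Tpm1* reached 1686, 2028 and 1564 CPM in MEC-like cells and 5254, 3506 and 2854 CPM in mural-like cells, without overlap. Its relative *Tpm2* went the other way, at 5869.7, 7789 and 7649 CPM in MEC-like and 5853, 5447 and 5538 CPM in mural-like cells, although the female values differed by little. Mural-like values were the higher for *Cald1*, at 3986, 2692 and 2242 CPM against 1824, 1653 and 1519 CPM in MEC-like cells. They were also the higher for *Tagln*, at 8409, 8295 and 8188 CPM against 3809, 5498 and 5019 CPM. In *Cnn1* the order was turned round by a wide margin, with 1480.5, 1879 and 1559 CPM in MEC-like cells and 193, 157 and 102 CPM in mural-like cells, the latter from 19, 5 and 3 UMIs. *Flna* gave 925, 970.5 and 744 CPM in MEC-like and 1572, 1002 and 815 CPM in mural-like cells, which overlapped. In all, MEC-like cells lay wholly above mural-like cells for 2 members and wholly below for 6, where 18.0% and 13.7% of the 4933 genes tested did so.

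**Figure D1:**
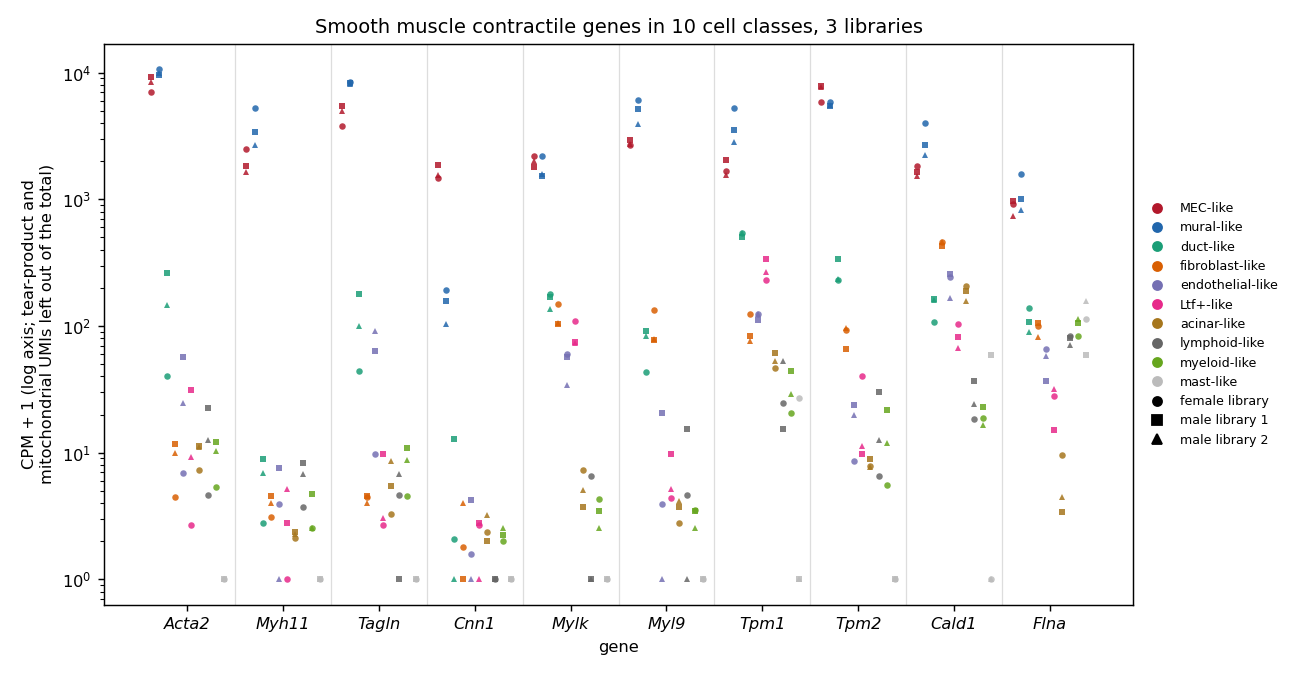
CPM + 1 of the 10 contractile genes (log axis) in each cell class, with 1 point for each library. MEC-like and mural-like cells were the highest 2 classes for each of the 10 genes, and duct-like cells came next for most.

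Both contractile classes stood far from the rest of the gland. With edgeR's quasi-likelihood test on UMIs summed per library, all 10 members were higher in MEC-like cells than in the other cells at a Benjamini-Hochberg adjusted p under 0.05, where 19.0% of all genes tested were higher and 20.0% lower. The median log2 fold change of the members was 7.17, beside −0.05 over all genes. It ran from 3.04 (SE 0.21) for *Cald1* to 9.95 (SE 0.34) for *Cnn1*, with 8.73 for *Acta2*, 9.69 for *Myh11* and 8.25 for *Tagln*. All 10 were also higher in mural-like cells than in the other cells, where 10.7% of genes were higher and 15.2% lower, with a median of 6.73 beside −0.21 over all genes. There *Myh11* was highest at 10.50 (SE 0.34), *Cnn1* stood at 6.58 (SE 0.45) and *Cald1* was again lowest at 3.75 (SE 0.22). The smallest changes in both comparisons belonged to *Cald1*, *Tpm1* and *Flna*, 3 members that non-muscle cells also use. The comparisons share the other cells. Each of these 20 calls was kept under all 16 alternatives tried.

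Compared directly, MEC-like cells held less *Tpm1*, *Myh11*, *Tagln* and *Cald1* than mural-like cells and more *Cnn1*. The *Cnn1* difference was 3.37 on the log2 scale (SE 0.31, edgeR adjusted p = 9.82e-07), a 10.3-fold higher level in MEC-like cells. It stayed between 3.24 and 4.29 and kept its call under all 17 alternatives. It was the only member higher in MEC-like cells, where 9.79% of the genes tested were. The log2 difference was −0.99 for *Tpm1* (SE 0.22, edgeR adjusted p = 0.00413), −0.81 for *Myh11* (SE 0.22, edgeR adjusted p = 0.0168), −0.72 for *Tagln* (SE 0.19, edgeR adjusted p = 0.0146) and −0.71 for *Cald1* (SE 0.21, edgeR adjusted p = 0.0225). These 4 lower members stand beside 8.33% of genes called lower.

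The other 5 members did not pass. *Myl9* differed by −0.67 (SE 0.27, edgeR adjusted p = 0.0996), *Tpm2* by 0.49 (SE 0.26, adjusted p = 0.249) and *Mylk* by 0.34 (SE 0.26, adjusted p = 0.483). *Acta2* differed by −0.20 (SE 0.23, edgeR adjusted p = 0.666) and *Flna* by −0.21 (SE 0.26, adjusted p = 0.71), and the signs of both turned with the scaling or with a library left out. The median over the 10 members was −0.44 beside 0.13 over all genes. Whereas *Cnn1* held throughout, the 4 lower calls did not, since none was made with library totals in place of scaling factors, without the library term or with free RNA subtracted. The log2 differences of *Tpm1*, *Myh11*, *Tagln* and *Cald1* were nevertheless −1.003, −0.83, −0.74 and −0.72 with free RNA subtracted and −1.05, −0.84, −0.68 and −0.75 without the library term, close to those above, while totals gave −0.75, −0.59, −0.49 and −0.47. Without male library 2 the call was kept by *Tpm1* alone (log2 −0.92), without male library 1 by *Tpm1* (−1.12) and *Tagln* (−0.80). Without the female library *Cald1* lost its call (−0.49), *Myl9* gained one (−0.52), and *Tpm2* became higher in MEC-like cells (0.64), as it did under 4 other alternatives.

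**Figure D2:**
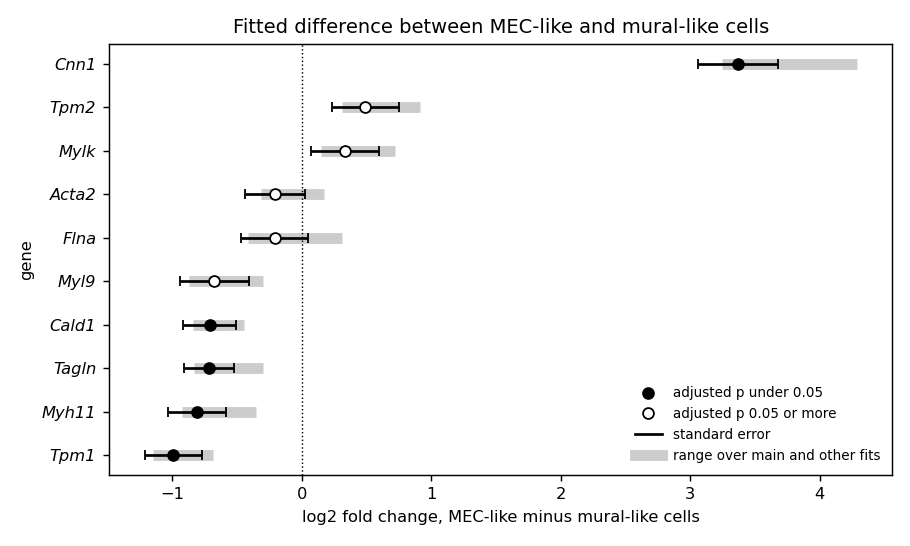
Log2 fold change of each contractile gene between MEC-like and mural-like cells with its standard error (edgeR, 3 libraries), filled where the adjusted p was under 0.05. *Cnn1* stands alone to the right at 3.37, and *Tpm1*, *Myh11*, *Tagln* and *Cald1* are filled on the left.

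The make-up of the contractile transcripts was set against *Acta2* within the same cells, which cancels the library total. MEC-like cells held 21.0, 20.2 and 18.4 *Cnn1* UMIs per 100 *Acta2* UMIs and mural-like cells 1.82, 1.64 and 1.02. Likewise *Tpm2* was the higher in MEC-like cells, at 83.1, 83.9 and 90.2 against 55.2, 57.2 and 55.6. Mural-like cells held the more *Tagln*, at 79.3, 87.2 and 82.3 against 53.9, 59.2 and 59.2. These 3 ratios did not overlap between the classes, and the same was true of *Myl9* (33.9 ± 3.32 in MEC-like, 50.2 ± 9.64 in mural-like cells) and *Tpm1* (21.4 ± 2.74 and 38.4 ± 10.5). The ranges over libraries met for *Myh11*, *Cald1* and *Mylk*, yet within each library the order was the same. *Myh11* stood at 35.5, 19.7 and 19.4 in MEC-like and 49.8, 35.9 and 27.0 in mural-like cells, *Cald1* at 25.8, 17.8 and 17.9 and 37.6, 28.3 and 22.5, and *Mylk*, the higher in MEC-like cells, at 31.0, 19.4 and 23.7 and 20.7, 16.1 and 16.04. *Flna* gave 10.8 ± 2.17 and 11.2 ± 3.37. Between the tropomyosins, MEC-like cells held 28.7, 26.04 and 20.4 *Tpm1* UMIs per 100 *Tpm2* UMIs and mural-like cells 89.8, 64.4 and 51.5, again without overlap. A ratio to *Acta2* also carries any difference in *Acta2* itself. In the female library *Acta2* stood at 7063 CPM in MEC-like and 10600 CPM in mural-like cells. The *Tpm2* and *Mylk* levels of that library were nearly equal, so their gaps there come from *Acta2*. These ratios are values over 3 libraries and were not tested.

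**Figure D3:**
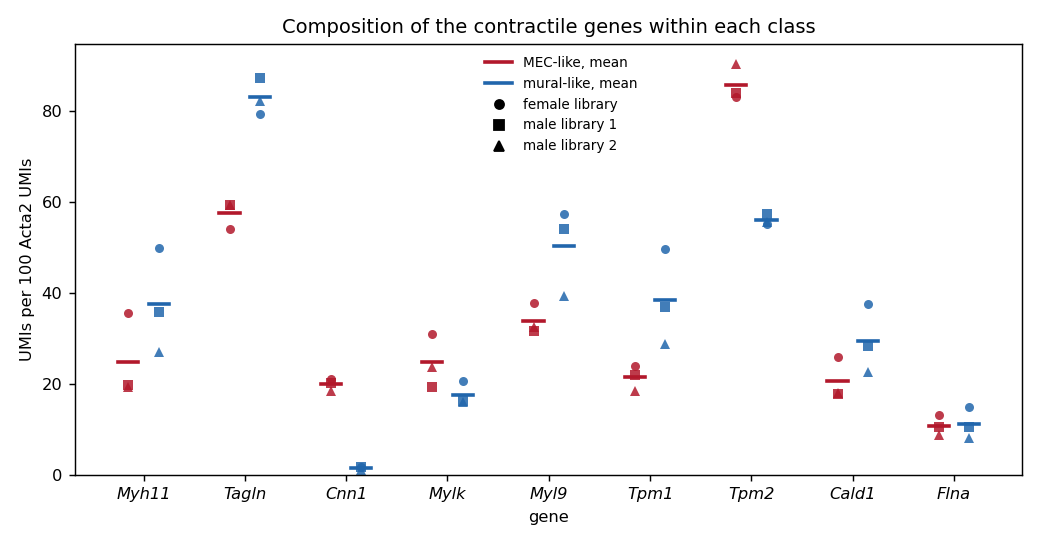
UMIs of each contractile gene per 100 *Acta2* UMIs (linear axis) in MEC-like and mural-like cells, with 1 point for each library and a bar at the mean. *Cnn1* lies near 20 in MEC-like cells and under 2 in mural-like cells, while *Tagln*, *Myl9* and *Tpm1* lie higher in mural-like cells and *Tpm2* in MEC-like cells.

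Each contractile protein has relatives in non-muscle cells, and the smooth muscle member's share of its family was also split. *Cnn1* made up 75.5 ± 3.72% in MEC-like and 24.2 ± 8.44% in mural-like cells of the UMIs of *Cnn1*, *Cnn2* and *Cnn3*. *Myh11* made up 80.5 ± 1.15% in MEC-like and 92.3 ± 2.03% in mural-like cells of the myosin heavy chain UMIs counted with *Myh9*, *Myh10* and *Myh14*. *Acta2* took 41.0 ± 2.31% in MEC-like and 53.3 ± 3.86% in mural-like cells of actin UMIs. These were counted with *Actb*, *Actg1* and the other smooth muscle actin, *Actg2*. Here the cytoplasmic actin *Actg1* differed, at 3421, 4134 and 4124 CPM in MEC-like and 943, 1346 and 1189 CPM in mural-like cells (log2 1.88, SE 0.19, edgeR adjusted p = 3.32e-06). *Actb* stood at 7824 ± 201 and 7596 ± 1284 CPM and did not pass. *Tpm1* made up 19.4 ± 2.66% in MEC-like and 38.4 ± 6.82% in mural-like cells of tropomyosin UMIs and *Tpm2* 77.7 ± 2.62% in MEC-like and 57.1 ± 5.88% in mural-like cells. The *Tpm1* share does not mark smooth muscle. It was 39.3% in acinar-like, 46.5% in duct-like and 57.8% in *Ltf*+-like cells. In fibroblast-like, endothelial-like, lymphoid-like, myeloid-like and mast-like cells it was 15.6%, 13.4%, 6.37%, 6.35% and 1.20%. *Myl9* made up 84.8 ± 0.817% in MEC-like and 91.9 ± 1.79% in mural-like cells of the regulatory light chain UMIs, the rest being *Myl12a* and *Myl12b*. *Tagln*, by contrast, made up 98.1 ± 0.767% in MEC-like and 98.2 ± 0.562% in mural-like cells of its UMIs and those of *Tagln2*.

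*Cnn1* in mural-like cells was low but above the other classes. Its 27 UMIs lay in 17 of the 148 mural-like cells, 9, 5 and 3 in the 3 libraries. Each of those 17 cells also held a UMI of *Myh11*, a gene that MEC-like cells hold too. Of the mural marker *Rgs5*, 6 of the 17 cells held a UMI, 4, 1 and 1 in the 3 libraries. None of the 148 cells held a UMI of *Krt5*, *Krt14* or *Trp63*. None held one of *Pcp4*, a calmodulin-binding peptide of which MEC-like cells had 51.2 UMIs per 100 *Cnn1* UMIs. Barcodes without a cell held 0, 0 and 2 *Cnn1* UMIs, and by that share 0, 0 and 0.832 UMIs would fall in mural-like cells. Outside the contractile classes *Cnn1* reached 4.30 ± 6.54 CPM in duct-like cells and less elsewhere.

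Cells were also thinned to 1000 UMIs each and counted as positive where a UMI of the gene remained, which left out 2, 7 and 33 MEC-like and 0, 0 and 13 mural-like cells. Unlike CPM, these 1000 UMIs include tear products and mitochondrial transcripts. Tear products took the larger share in mural-like cells of each library, and their part in the thinned values was not tested. *Cnn1* was detected in 52.4%, 50.3% and 51.0% of MEC-like cells (exact binomial 95% intervals 46.9 to 57.8%, 44.6 to 56.0% and 44.5 to 57.5%). In mural-like cells it was detected in 6%, 6.67% and 7.5% (1.25 to 16.5%, 1.40 to 18.3% and 1.57 to 20.4%), so the intervals were apart in each library. Intervals cover counting error only. *Acta2* was detected in 93.5%, 91.7% and 92.5% of MEC-like and 88%, 75.6% and 82.5% of mural-like cells, an order opposite to that of its CPM, from which nothing is read. *Myh11* was found in 66.6%, 50% and 49.0% of MEC-like and 80%, 55.6% and 52.5% of mural-like cells, and *Tpm1* in 58.9%, 53.8% and 44.8% and 80%, 57.8% and 60%. *Tpm2* was found in 88.5%, 88.2% and 89.2% of MEC-like and 82%, 75.6% and 72.5% of mural-like cells, the same order as its CPM in each library. *Cald1* was found in 68.6%, 50.3% and 42.7% and 80%, 62.2% and 47.5%, the mural-like share being the higher throughout. The ranges of the classes overlapped for *Tagln* (76.9%, 78.0% and 76.3% against 80%, 71.1% and 75%), *Myl9* (78.1%, 67.5% and 67.2% against 86%, 57.8% and 77.5%), *Mylk* (74.0%, 51.3% and 60.2% against 70%, 35.6% and 42.5%) and *Flna* (45.9%, 34.1% and 31.5% against 58%, 31.1% and 20%). In lymphoid-like cells (median 2290.5, 1333.5 and 1028 UMIs), a class without a smooth muscle program, *Flna* was found in at most 4.15%, *Tpm1* in 1.69%, *Cald1* in 1.43% and each of the others in at most 0.725% of thinned cells. Without thinning, *Cnn1* was found in 70.8% ± 11.6 of MEC-like and 11.6% ± 6.18 of mural-like cells.

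**Figure D4:**
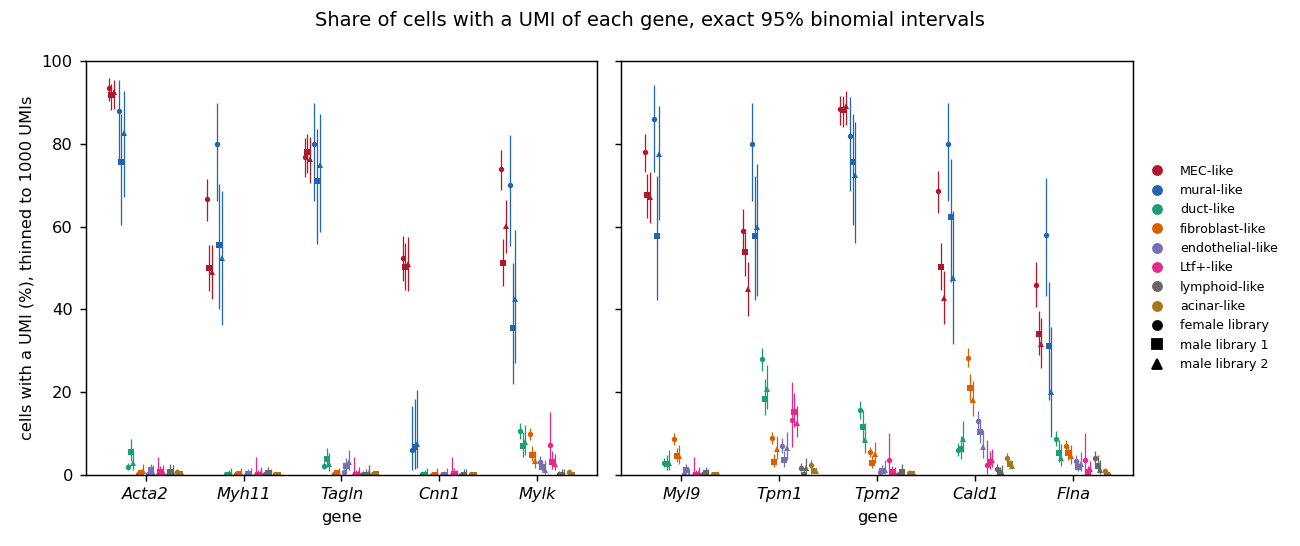
Share of cells, thinned to 1000 UMIs, with a UMI of each contractile gene, with 1 point and an exact binomial interval for each library. The classes are MEC-like, mural-like, duct-like, fibroblast-like, endothelial-like, *Ltf*+-like, lymphoid-like and acinar-like cells. *Cnn1* is near 50% in MEC-like and near 7% in mural-like cells, and the last 2 classes lie near 0 for most genes.

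Single cells tended to hold most of the program at once. A thinned MEC-like cell had UMIs of a median of 7, 6 and 6 of the 10 members in the 3 libraries, and a mural-like cell the same. At least 5 members were found in 86.1%, 79.6% and 78.4% of MEC-like and 86%, 66.7% and 65% of mural-like cells. Beyond these classes, 5 or more members were found only in duct-like cells, 3 cells in each library of 1015, 320 and 240. Member UMIs took a median of 19, 14 and 15 per 1000 in MEC-like cells and 24.5, 12 and 11 in mural-like cells, on the scale that counts tear products. Across cells of 1 library, *Acta2* correlated with *Tagln* at r = 0.46, 0.50 and 0.62 in MEC-like cells and 0.69, 0.79 and 0.77 in mural-like cells. The median over the 45 pairs of members was 0.25, 0.18 and 0.18 in MEC-like cells (338, 314 and 241 cells) and 0.39, 0.45 and 0.39 in mural-like cells (50, 45 and 40 cells). The cells of a library share its preparation, and the thinned counts are sparse, so these are descriptions.

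Mural-like cells differed widely among themselves. Those with a *Myh11* UMI after thinning numbered 40, 25 and 21, and those without 10, 20 and 19. *Acta2*, which did not set that split, averaged 7.28, 6.44 and 6.29 UMIs per 1000 in the former and 0.8, 1.25 and 1.84 in the latter. *Tagln* averaged 6, 5.12 and 5.81 against 1.2, 0.95 and 1.58, and *Tpm2* 4.05, 3.76 and 3.86 against 1.1, 0.7 and 0.947. The pericyte and mural marker *Rgs5* averaged 4.75, 1.52 and 1.52 with and 7.1, 2.05 and 1.16 without *Myh11*, lower without *Myh11* in male library 2 only. Other genes of mural cells went both ways. Lower without *Myh11* in each library were *Notch3* at 0.5, 0.15 and 0.0526 against 0.775, 0.28 and 0.667, *Mustn1* at 0.2, 0.2 and 0.263 against 0.8, 0.76 and 0.952 and *Des* at 0.4, 0.25 and 0.526 against 0.475, 0.8 and 0.714. Higher without it in each library were *Vtn* (0.3, 0.2 and 0.316 against 0.1, 0 and 0.238), *Kcnj8* (0.2, 0.1 and 0.0526 against 0.025, 0 and 0) and *Abcc9* (0.3, 0.2 and 0.0526 against 0.025, 0 and 0). *Pdgfrb* (0.9 against 0.25) and *Higd1b* (0.3 against 0.05) were higher without it in the female library only. Among cells with a UMI of *Kcnj8*, *Abcc9* or *Higd1b*, genes of pericytes, member UMIs averaged 10.9, 11.8 and 7.67 per 1000 (9, 10 and 3 cells), and 31.5, 17.9 and 17.2 in the rest. The mural-like averages above pool cells rich and poor in contractile transcripts. At a finer clustering, MEC-like cells split into clusters of 877 and 59 cells, in which the members together took 30234, 36036 and 33196 CPM and 18721, 17257 and 20754 CPM. *Myh11* was not lower in the small cluster, at 2498, 1817 and 1644 CPM in the large and 2745, 2361 and 1669.8 CPM in the small cluster. The small cluster had only 25, 18 and 16 cells, and the values of male library 2 differed by little. Tear products took 26.7, 49.8 and 49.6% of UMIs in the former and 55.4, 74.0 and 71.7% in the latter, and their part in that gap was not tested.

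The share of a gene's UMIs that the contractile classes hold follows their size as well as their level. MEC-like cells, 4.44%, 6.06% and 5.08% of cells, held 96.9% ± 0.557 of all *Cnn1* UMIs, 83.2% ± 1.55 of *Acta2* and 81.6% ± 6.23 of *Tpm2*. Mural-like cells, 0.653%, 0.850% and 0.982% of cells, held 18.8% ± 1.24 of *Myh11*, 17.6% ± 3.01 of *Tagln* and 1.13% ± 0.333 of *Cnn1*. The remaining members were spread more widely. Of *Cald1* UMIs, 27.8%, 29.9% and 27.0% lay in MEC-like, 17.0%, 36.2% and 43.8% in acinar-like and 31.9%, 15.7% and 13.7% in fibroblast-like cells, so fibroblast-like cells held most in the female library and acinar-like cells in the male libraries. Of *Flna* UMIs, 33.5%, 52.0% and 43.1% lay in MEC-like and 14.1%, 16.6% and 21.3% in myeloid-like cells.

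Outside the contractile classes, duct-like cells came next for 7 of the 10 members. They held 526 ± 21.6 CPM of *Tpm1*, 267 ± 62.2 CPM of *Tpm2* and 161 ± 22.7 CPM of *Mylk*, values that in *Tpm1* and *Tpm2* lay above every other class beyond the spread of libraries. The levels differed between the duct clusters. In the cluster led by *Sfn*, *Krt17* and *Krt14*, *Acta2* reached 220.0 ± 171 CPM and *Tpm1* 674 ± 48.2 CPM, and in the cluster led by *Ly6d*, *Wfdc2* and *Dapl1* they reached 28.0 ± 4.96 and 309 ± 52.5 CPM. Few duct-like cells held *Acta2*, at 3.47 ± 1.94% of thinned cells against 22.4 ± 4.91% for *Tpm1*. Whether MEC-like or mixed cells among them supplied the *Acta2* was not tested. *Cald1* was next highest in fibroblast-like cells at 446 ± 18.4 CPM, ahead of endothelial-like cells at 221 ± 48.7 CPM. In *Flna*, duct-like, mast-like, myeloid-like and fibroblast-like cells overlapped at 111 ± 25.6, 109 ± 48.6, 99.8 ± 16.2 and 95.04 ± 12.7 CPM. Among endothelial-like cells, the cluster led by the venous genes *Selp*, *Vwf* and *Ackr1* held 143 ± 103 CPM of *Tagln*, and the one led by *Flt1*, *Kdr* and *Plvap* 14.7 ± 10.9 CPM. *Myh11* was at most 5.25 ± 2.28 CPM in any class other than the contractile ones.

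The surrounding machinery was read from 5 lists of 59 genes in all, of which 41 were tested. Between MEC-like and mural-like cells, 4 were higher and 12 lower, and 25 did not pass, beside 9.79% and 8.33% of all genes tested, so the higher share was near that of all genes. The authors had already reported *Des* and *Mustn1* in mural cells and *Pcp4* in MECs from these data. The counts are not independent of that. The lists had a median log2 fold change of −0.56 beside 0.13 over all genes, a median that genes at 0 UMIs leave in place when set to the bounds given here. Among 12 smooth muscle partners, 5 were lower in MEC-like cells and 1 higher. The intermediate filament gene *Des* (desmin) had no UMI in MEC-like cells and 933, 1158 and 1257 CPM in mural-like cells, an at least 448-fold lower level. *Mustn1*, a small muscle protein, likewise had none against 1369, 1221 and 1223 CPM (at least 567-fold), and *Pln*, phospholamban, none against 54 UMIs (at least 146-fold). These bounds set 3 counts over the 3 libraries in place of 0. *Ppp1r14a*, CPI-17, an inhibitor of myosin phosphatase, stood at 92.5, 142 and 131 against 467, 783 and 951 CPM (log2 −2.43, SE 0.35, edgeR adjusted p = 9.54e-05). *Ppp1r12b*, a targeting subunit of that phosphatase, was lower too at −1.55 (SE 0.36), a call lost without the female library (−1.0) and at a mitochondrial share under 5% (−1.15). The higher partner was *Csrp1*, a LIM-domain protein of the cytoskeleton, with 1257, 1828 and 1619 against 619, 501 and 849 CPM (log2 1.35, SE 0.25, edgeR adjusted p = 7.87e-04).

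Receptors and calcium genes set the classes apart as well. *Chrm3*, the muscarinic M3 acetylcholine receptor, stood at 182, 91.2 and 85.5 CPM in MEC-like cells with no UMI in mural-like cells, at least 7.91-fold higher. The endothelin receptor *Ednra* (24.5 ± 13.6 against 149 ± 22.5 CPM), the adrenergic receptor *Adra2a* and the purinergic receptor *P2rx1* were lower in MEC-like cells. The latter pair had no UMI there and 21 and 37 in mural-like cells, at least 56.7-fold and 99.8-fold. The *Ednra* call was lost with library totals (−2.29) and without the library term (−2.36), against −2.43 as fitted. The oxytocin receptor *Oxtr*, which drives MEC contraction in the mammary gland, had 10 UMIs in MEC-like and 0 in mural-like cells, a difference not detectable at this depth. *Tacr1*, the substance P receptor, had 78 and 0 UMIs, at least 3.21-fold, and was too low to test. Of the 10 calcium and calmodulin genes tested, *Pcp4* was higher in MEC-like cells at 746, 1051 and 729 CPM against no UMI, at least 43.1-fold. The L-type calcium channel *Cacna1c* (log2 −3.06, SE 0.73) and the kinases *Camk2d* (−2.67, SE 0.45) and *Camk2g* (−2.19, SE 0.55) were lower. The call was lost without the female library for *Cacna1c* (−2.84) and *Camk2g* (−1.47), and without male library 1 for *Cacna1c* (−3.25). That of *Camk2g* was lost in 5 of its 16 alternatives in all, at −1.46 to −1.91.

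Of 8 genes listed as SRF regulators, 4 were tested, and neither *Srf* nor a coactivator of SRF was among those 4. *Rock1*, a kinase that restrains myosin phosphatase, was lower in MEC-like cells at 202, 135 and 161 against 822, 563 and 238 CPM (log2 −1.63, SE 0.31, edgeR adjusted p = 0.00124). *Myocd*, the muscle coactivator of SRF, was too low to test, with 0 UMIs in 935 MEC-like cells and 12 in 148 mural-like cells, at least 32.4-fold. *Srf* itself had 28 UMIs in MEC-like and 3 in mural-like cells. MEC-like cells also held far more UMIs in all (1196384 against 167707 in the female library). No difference in *Srf* level is therefore read from these counts. Among the 11 non-muscle paralogs tested, *Actg1* was higher in MEC-like cells and none was lower. The same fits placed 12 of the 12 smooth muscle partners higher in mural-like than in other cells, and 9 of 12 higher and 2 lower, *Des* and *Mustn1*, in MEC-like than in other cells. All genes tested stood at 10.7% higher in the former comparison and at 19.0% higher and 20.0% lower in the latter.

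**Figure D5:**
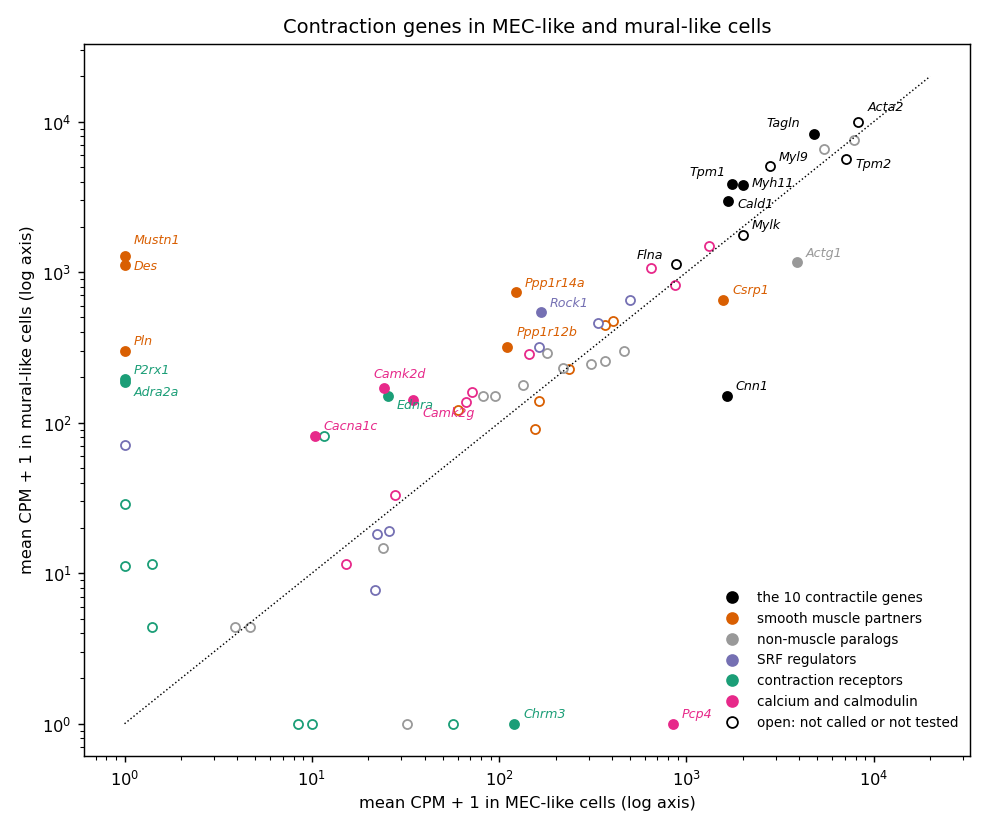
Mean CPM + 1 in MEC-like (x) and mural-like cells (y), both on log axes, for the 10 contractile genes and the 59 genes of the wider lists, filled where called by edgeR at an adjusted p under 0.05. *Des*, *Mustn1* and *Pln* lie at 0 UMIs in MEC-like cells, and *Pcp4* and *Chrm3* at 0 in mural-like cells, while most contractile genes lie near the diagonal.

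The genes outside these lists whose levels were most like the mean of the 10 members, over 30 points (10 classes in 3 libraries, Pearson's r of log2(CPM + 10)), were *Fbxl22* (r = 0.961), *Fmod* (0.948), *Slc2a4* (0.943), *P3h2* (0.942) and *Nhs* (0.932). *Fbxl22*, an F-box protein, reached 159 ± 46.5 CPM in MEC-like and 255 ± 132 CPM in mural-like cells. *Fmod*, the proteoglycan fibromodulin, reached 103 ± 24.5 and 179.9 ± 108 CPM, and *Slc2a4*, the glucose transporter GLUT4, 96.7 ± 24.9 and 67.5 ± 26.7 CPM. The members themselves followed that mean at r from 0.848 (*Flna*) to 0.984 (*Tpm2*). Points of a library share its depth and preparation.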

How the data were processed

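Single-cell RNA sequencing was made with a 3′-end droplet kit in 3 libraries. The authors deposited UMI counts for every gene in every barcode, from Cell Ranger 6.1.2 on mm10 per the labels, before their removal of ambient RNA and doublets, although the file header of all barcodes gives Cell Ranger 4. The annotation release is not given in the sources used here, and coordinates come from GENCODE vM21 on GRCm38. The called barcodes (9737, 6422 and 6899) were cut to cells with over 500 UMIs, over 200 genes and under 15% mitochondrial UMIs, and the 646, 287 and 315 cells with the highest scrublet scores (scanpy 1.11.5, expected rate 0.8% per 1000 barcodes) were removed as doublets. Cells were integrated with SCTransform (3000 features) in Seurat 5.3.0 and clustered at resolution 1, with the 10 members, the wider lists, tear products, mitochondrial, ribosomal, haemoglobin and sex-linked genes left out, and clusters were named by fixed markers.

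UMIs of MEC-like, mural-like and all other cells were summed per library. The 9 sums were fitted together with edgeR 4.0.16 (filterByExpr, TMM, quasi-likelihood test, R 4.3.3) with library as a term, since the 3 sums of a library come from the same pooled mice, and p-values were adjusted over the 4933 genes tested by Benjamini-Hochberg. They measure only the spread between 3 pools. Alternatives were totals in place of TMM, DESeq2 1.42.0, no filter, no library term, each library left out, other cell filters, naming and clustering, subtraction of free RNA, and, added after seeing the data, the MEC-like and mural-like sums alone. Named genes are all 10 members, called genes of the wider lists and the 5 genes most like the members' mean, and genes singled out beyond these (*Oxtr*, *Tacr1*, *Myocd*, *Srf*) were chosen after their values were seen. The members and lists were chosen with earlier results of these data known. Intervals on shares of cells are exact binomial.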

Additional observations from a re-analysis of the deposited data

How the results depend on the processing

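The calls against the other cells held for all 10 members in both classes under the 16 alternatives tried, and MEC-like and mural-like cells remained the highest 2 classes for 10 of 10 members with each library left out, by level, and without thinning, by share of cells. Between MEC-like and mural-like cells, the count of lower members went from 4 to 0 with library totals and no scaling factor, to 0 with no replicate block (the library term), to 0 with free RNA subtracted, to 1 with no filter on low counts, to 1 with a mitochondrial share under 5% and to 2 in cells with 2 or more naming markers. Under the block and free RNA settings the log2 differences kept their size (*Tpm1* −1.05 and −1.003, edgeR adjusted p = 0.0573 and 0.0559). With 1 library left out the count lay between 1 and 4. The count of higher members went from 1 to 2 with no filter, with a mitochondrial share under 5%, in cells with 2 or more naming markers and with acinar-like cells left out of the other cells, and lay between 1 and 2 with 1 library left out. *Acta2* turned to 0.0273 with totals, 0.0612 with no filter, 0.0106 without the female library, 0.172 under 5% mitochondrial share, 0.0497 with more doublets removed and 0.0679 in cells with 2 or more markers, and *Flna* to 0.0461, 0.0567, 0.0573 and 0.309 under the first 4 of these, all without a call. With 1 library left out, *Acta2* lay between −0.287 and 0.0106 and *Flna* between −0.318 and 0.0573. The cause was not tested. Library totals moved the median log2 fold change of all genes from 0.13 to 0.39 between MEC-like and mural-like cells, and to 1.69 for MEC-like and 1.25 for mural-like against other cells. Genes called higher in MEC-like than other cells then numbered 4057 in place of 936 and lower 214 in place of 985 (94.99% of calls higher in place of 48.7%), and for mural-like cells 1976 in place of 528 and 110 in place of 748 (94.7% in place of 41.4%). Totals without tear products and mitochondrial genes gave 65.3% and 59.7% higher, with 457 lower in mural-like cells, and DESeq2 gave 51.9% higher for mural-like cells. With no filter on low counts the calls against other cells were 1407 higher and 2656 lower for MEC-like cells (34.6% higher) and 1391 lower for mural-like cells. CPM over all UMIs, added after seeing the data, lowered the level of every member in both classes, *Cnn1* to 877 CPM in MEC-like and 70.5 CPM in mural-like cells. Mural-like sums held 75880 to 167707 UMIs, which limits what could be called there.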
